A study of Danio rerio with 20 samples.

Results

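Aminoacyl-tRNA synthetases join each amino acid to its transfer RNA, the step that supplies the ribosome. Vertebrate cells carry one set of these enzymes in the cytosol and another in the mitochondrion, all encoded in the nucleus. Several of the cytosolic enzymes sit in a large multisynthetase complex held together by scaffold proteins. Synthetase genes are also known targets of ATF4, the transcription factor made when eIF2alpha is phosphorylated under amino acid shortage, heme shortage or other stress, so they are often read together with genes of amino acid synthesis and import.

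The genes were taken by symbol: an amino acid letter followed by "ars" and at most 2 further characters, or a symbol that starts with eprs or fars. This found 31 of the 26651 gene IDs in the files, of which 30 are synthetases, 19 cytosolic and 11 mitochondrial. The remaining gene, aarsd1, encodes an alanyl-tRNA editing domain protein and is left out of the sums and counts. The gene name table holds 8 further synthetase IDs (KARS1, FARSA, WARS1, SARS2, EARS2, YARS2, NARS2 and another AARS2). None of these is among the 26651 gene IDs, so none was analysed here. The gene hars is paired with the name HARS2 in that table and was counted as cytosolic, as was gars, whose vertebrate orthologs encode a cytosolic and a mitochondrial form. Each of the 30 was listed on all 20 plates except lars2, which was listed on 17. The 31 genes together gave 227964 UMIs (unique molecular identifiers, which mark single mRNA molecules), 0.296% of the UMIs of all cells.

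The cells came from zebrafish embryos carrying tg(kdrl:mCherry-CAAX/cd41:eGFP), which label endothelium and, at low eGFP, hematopoietic stem and progenitor cells (HSPCs). Single cells were sorted into 384-well plates and sequenced by SORT-seq, which counts the 3′ ends of mRNAs, so that a level in CPM, UMIs scaled to the total of the cells summed, does not scale with transcript length. The plates hold 2 of ptena-/-ptenb-/- mutants and 2 of their siblings, from the caudal hematopoietic tissue (CHT) at 5 days postfertilization (dpf). They also hold 5 of embryos treated with LY294002, an inhibitor of phosphatidylinositol-3 kinase (PI3K), and 4 of controls from the aorta-gonad-mesonephros region (AGM) at 36 hours postfertilization (hpf), and 2 with LY294002 and 2 of controls from the CHT at 5 dpf. A further 3 AGM plates hold treated and control wells together. The plate layouts that tell these wells apart were not used here, and the plates enter no comparison. The labels call the controls of the inhibitor wildtype, and the methods name DMSO as its vehicle. In the methods the inhibitor is added shortly before 36 hpf and, for late treatment, taken away well before 5 dpf. The exposure of the sequenced embryos is not given separately, so those at 5 dpf may no longer have been under the inhibitor. Mutants were picked by their appearance, the exact genotype of the siblings was not given for this experiment, and tissues of many embryos were pooled before sorting. A plate is used as the replicate throughout, though plates of a group may come from the same pool. The p-values measure the spread between plates, which may be largely technical. They may hold little of the spread between clutches or pools.

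Wells with at least 1500 UMIs gave 6116 cells of 7680 wells, with 122 to 378 cells and 1837137 to 8298215 UMIs on a plate. Cells were clustered without the synthetase genes and clusters were named from the study's marker genes. On the mutant and sibling plates the HSPC-like class joins 2 clusters, of which the larger is led by erythroid genes together with myb. Clusters led by keratins and other skin genes stayed unnamed, and on the mutant and sibling plates these held 64 and 67 cells of mutants, against 4 and 13 cells of siblings. Muscle transcripts differed widely between plates. In the HSPC-like cells of the mutant and sibling plates the groups overlapped, with 185 and 33746 CPM in mutants, against 26743 and 2284 CPM in siblings, whereas the groups separated in the CHT comparison of LY294002 and between stages, where the values are given. The part of muscle transcripts in the results was not tested. Plates use the same 384 well barcodes, and no cell's values recurred on another plate.

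Cytosolic synthetase transcripts stood higher in the mutants than in siblings in all 3 cell classes that could be compared, while mitochondrial synthetase transcripts differed by less or overlapped. In erythrocyte-like cells the 19 cytosolic genes summed to 6942 and 7986 CPM in the mutant plates, against 2249.5 and 2676 CPM in the sibling plates, a ratio of means of 3.03. In myeloid-like cells they summed to 5587 and 5550.1 CPM in mutants, against 1934 and 2382 CPM in siblings, a ratio of 2.58. The HSPC-like cells had 4810 and 5947 CPM in mutants, against 3086 and 3104 CPM in siblings, a ratio of 1.74. Every mutant plate lay above every sibling plate in these sums. They rest on between 807 UMIs, in the erythrocyte-like cells of sibling plate 2, and 11078 UMIs. The 11 mitochondrial genes summed to 63.8 and 85.5 CPM in mutants, against 104 and 79.6 CPM in siblings, in erythrocyte-like cells, where the plates overlapped (ratio of means 0.814). In HSPC-like cells that sum was 135 and 145 CPM in mutants, against 135 and 128 CPM in siblings (1.07). The myeloid-like cells had 79.3 and 94.5 CPM in mutants, against 45.8 and 72.4 CPM in siblings (1.47), from at most 101 UMIs a plate. No test of the sums was run, since an exact two-sided permutation test of 2 plates against 2 cannot give a p below 0.333, and the genes were tested one by one.

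**Figure D1:**
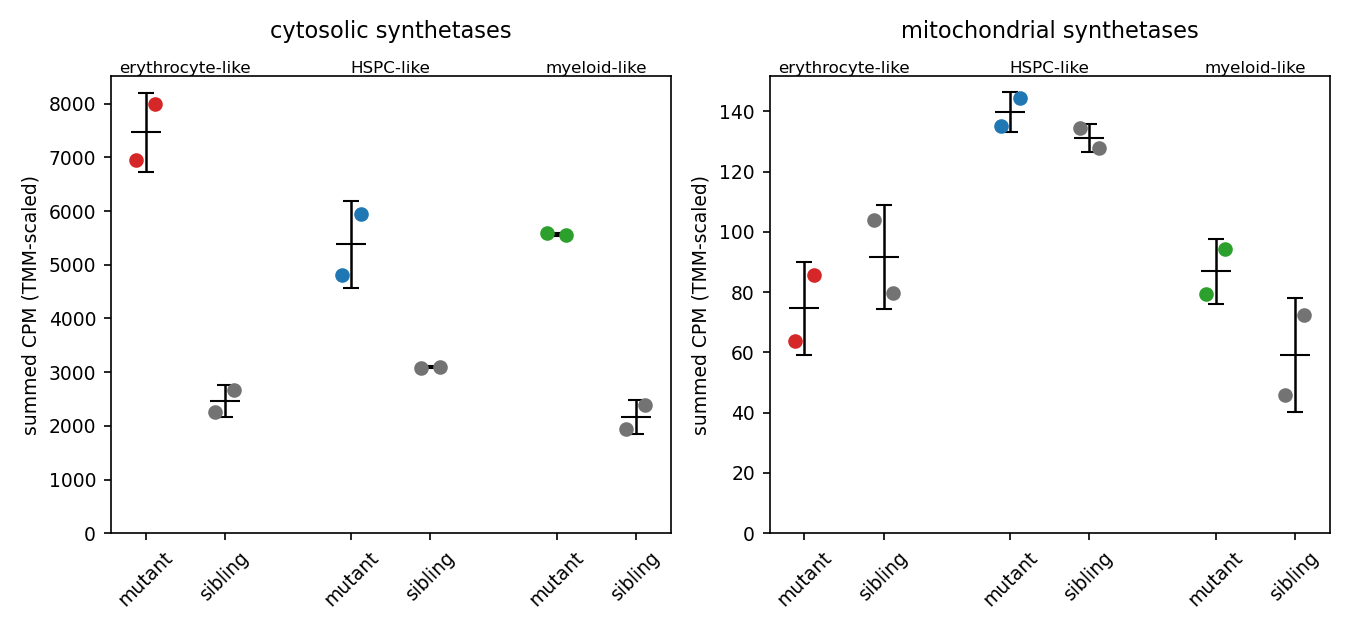
Summed level (CPM, scaled by TMM) of the 19 cytosolic and 11 mitochondrial synthetase genes in the CHT at 5 dpf, with mutants left of siblings in each class; each point is a plate, the dash is the mean and the bar is the SD (n = 2). The cytosolic sums of mutants lie between 4810 and 7986 CPM and those of siblings between 1934 and 3104 CPM, while the mitochondrial sums overlap in erythrocyte-like cells.

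Erythrocyte-like cells gave the most calls. Of the 30 synthetases, 19 passed the filter on low counts, and 14 of these rose in mutants and none fell (UMIs summed per plate, edgeR's quasi-likelihood F test, adjusted p under 0.05 over all genes). Over all 5767 genes tested, 9.24% rose and 5.77% fell. DESeq2 called 12 of the members higher, against 4.58% of all genes. All 14 called by edgeR were cytosolic, out of 17 cytosolic genes tested. The 2 mitochondrial genes tested, iars2 and cars2, were not called. The median log2 fold change was 1.17 over the 19 members and 0.0075 over all genes. Mutant plates lay above sibling plates without overlap for 16 of the 19, against 30% of all genes tested.

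The largest change belonged to yars, the tyrosyl-tRNA synthetase. It had 164 and 152 CPM in mutants, against 24.3 and 29.8 CPM in siblings, a log2 fold change of 2.58 (SE 0.288, edgeR adjusted p = 3.52e-05). The lowest mutant plate was thus well above the highest sibling plate. The alanyl-tRNA synthetase aars had 1259 and 1478 CPM in mutants, against 273 and 315 CPM in siblings (log2 fold change 2.23, SE 0.206, edgeR adjusted p = 1.13e-05). Its threonyl counterpart tars had 364 and 484 CPM in mutants, against 117 and 56.4 CPM in siblings (2.21, SE 0.296, edgeR adjusted p = 0.000179). The sibling plates differed from each other by more for tars than for aars or yars, and neither reached the mutants. The asparaginyl-tRNA synthetase nars was the most abundant member, with 1673 and 1903 CPM in mutants, against 304 and 584 CPM in siblings (2.03, SE 0.256, edgeR adjusted p = 0.000105).

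Genes inside and outside the multisynthetase complex rose. Inside the complex, mars, which charges the initiator and elongator methionine tRNAs, had 415 and 484 CPM in mutants, against 120.1 and 119 CPM in siblings (log2 fold change 1.91). The bifunctional glutamyl-prolyl enzyme eprs had 321 and 364 CPM in mutants, against 98.5 and 136 CPM in siblings (1.58). The isoleucyl enzyme iars, also of the complex, had 406 and 498 CPM in mutants, against 135 and 172 CPM in siblings (1.58). Outside the complex, mutants also stood clear of siblings for 3 more named genes. The valyl enzyme vars had 231 and 276 CPM in mutants, against 67.5 and 69.6 CPM in siblings (1.90). The beta subunit of the phenylalanyl enzyme, farsb, had 490.1 and 554 CPM in mutants, against 182 and 199 CPM in siblings (1.46). The glycyl enzyme gars had 277 and 369 CPM in mutants, against 148 and 139 CPM in siblings (1.17). The edgeR adjusted p of these 6 genes lay between 7.41e-05, for mars, and 0.00391, for gars.

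The other called genes were hars, cars, qars and dars, which charge histidine, cysteine, glutamine and aspartate, with log2 fold changes between 0.80 and 1.12. Of these cars lay nearest the threshold (edgeR adjusted p = 0.0478). Of the complex, 5 of 7 genes tested rose (median log2 fold change 0.85), and of the other cytosolic enzymes 9 of 10 rose (median 1.68). By the 2 structural classes of synthetases, 7 of 9 class I genes and 7 of 8 class II genes rose. The bifunctional eprs was counted in class I only, though its prolyl part belongs to class II. Of the cytosolic genes, sars (0.69, edgeR adjusted p = 0.0760), rars (0.25) and larsb (0.02) were not called. The leucyl enzyme larsb had nearly the same level in the groups, with 89.3 and 81.8 CPM in mutants, against 89.1 and 76.3 CPM in siblings.

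Neither mitochondrial gene tested was called. The isoleucyl enzyme iars2 had 23.7 and 12.9 CPM in mutants, against 18.9 and 13.3 CPM in siblings (log2 fold change -0.02, edgeR adjusted p = 0.988). The cysteinyl enzyme cars2 had 1.82 and 9.08 CPM in mutants, against 18.9 and 19.9 CPM in siblings (-1.50, SE 0.611, edgeR adjusted p = 0.112). The other 9 mitochondrial genes and the cytosolic tarsl2 and larsa did not pass the filter, with at most 22.9 CPM on any plate, and a difference in them was not detectable at this depth.

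**Figure D2:**
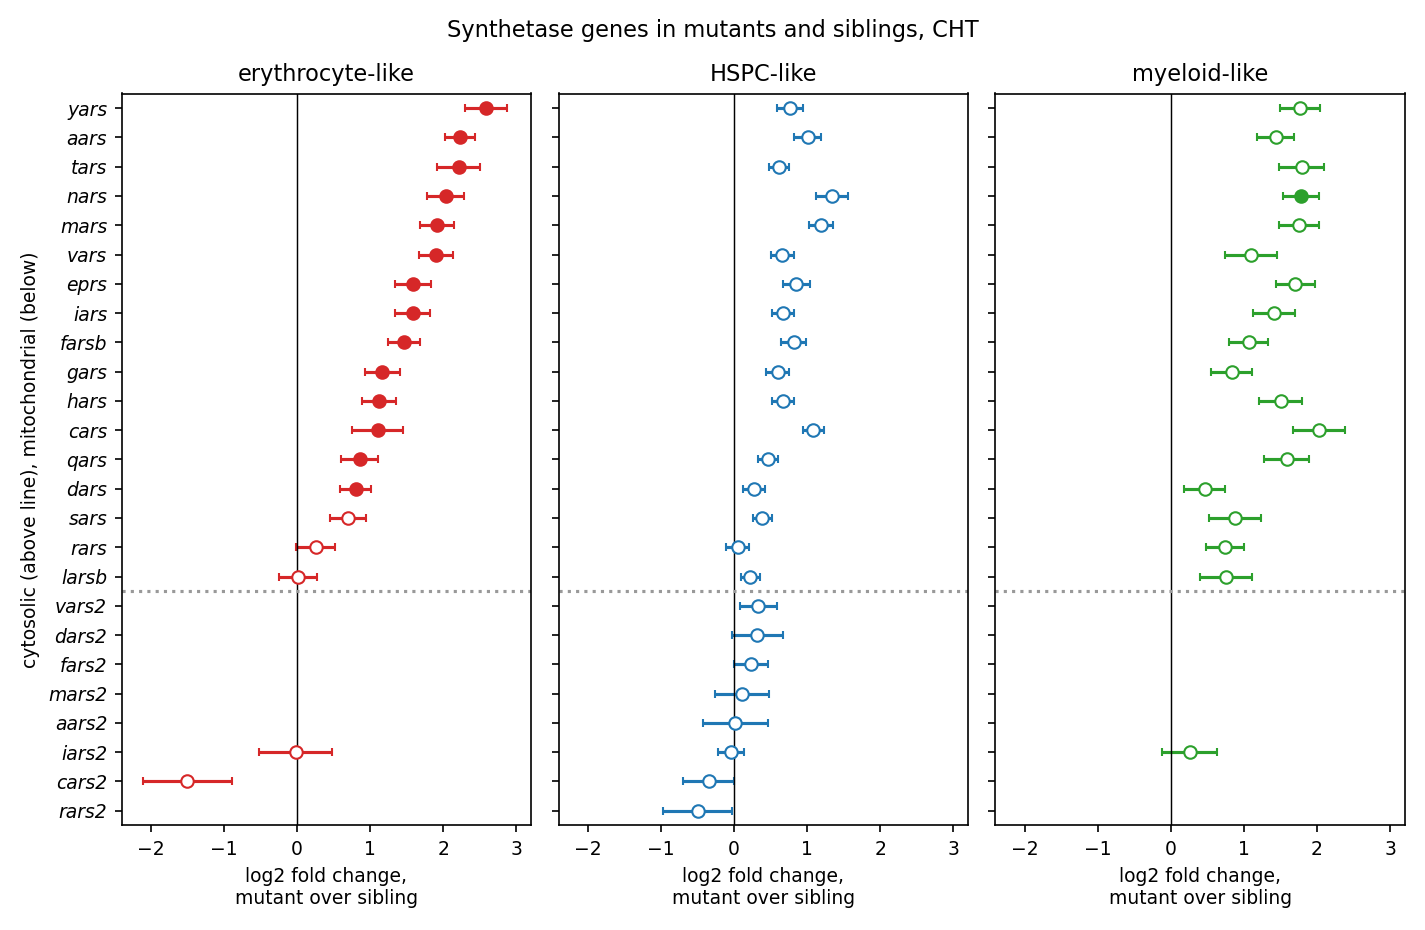
Log2 fold change, mutant over sibling, with its SE (edgeR) for each synthetase gene that passed the filter in HSPC-like cells, by cell class; filled points have an adjusted p under 0.05, and cytosolic genes stand above the dotted line. The 14 filled points in erythrocyte-like cells lie between 0.80 and 2.58, nars is the filled point in myeloid-like cells, and mitochondrial genes lie between -1.50 and 0.33.

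Markers of red cell maturation differed along with the synthetases. Erythrocyte markers took a median 9.94% and 10.0% of the UMIs of a mutant erythrocyte-like cell, against 3.21% and 4.23% of a sibling one. HSPC markers summed to 2753 and 2033 CPM in mutants, against 4117 and 3685 CPM in siblings, and EHT markers, of endothelial cells in transition to HSPCs, to 891 and 616 CPM in mutants, against 340.1 and 421 CPM in siblings. The EHT markers include the keratin genes krt8 and krt18, whose part in the EHT sums here and below was not tested. Neutrophil markers summed to 301 and 299 CPM in mutants, against 252 and 166 CPM in siblings. The median cell held 6783 and 8406 UMIs in mutants, against 16093 and 12892 UMIs in siblings. An alternative took only cells with 2% to 8% of their UMIs in erythrocyte markers, 25 and 53 cells of mutants against 40 and 20 cells of siblings. There 11 of 18 members tested rose and none fell, against 3.14% of all genes rising, with a median of 1.17 over the members. This alternative was chosen after seeing the data. Within that range the cytosolic sum, with no TMM scaling, was 5954 and 7608 CPM in mutants, against 2277 and 2585 CPM in siblings. The range did not match the groups. The median marker share in it was 3.71% and 5.27% in mutants, against 3.18% and 4.06% in siblings. The median cell in it held 11913.5 and 12075.5 UMIs in mutants, against 17416 and 13779 UMIs in siblings. The part of red cell maturation and of depth in the result was not tested.

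Skin transcripts also differed. In erythrocyte-like cells the skin list, of which 21 genes were found and krt92 and cyt1 had no UMI on any plate, summed to 2826 and 2502 CPM in mutants, against 731 and 1091 CPM in siblings. There 5 of its 9 genes tested rose, against 9.24% of all genes, with a median log2 fold change of 1.78 over the 9. In HSPC-like cells the sum was 3445 and 2946 CPM in mutants, against 1856 and 2130 CPM in siblings (2 of 16 rose, against 0.286% of all genes, median log2 fold change 2.17). In myeloid-like cells the sum was 5585 and 5126 CPM in mutants, against 6920 and 5127 CPM in siblings (1 of 12 rose, against 0.271% of all genes). The median log2 fold change of these 12 genes was 1.16, whereas their list's sum was not higher in mutants. In the unnamed cells led by skin genes, with no TMM scaling, the skin list summed to 110452 and 111619 CPM in mutants, against 54898 and 116016 CPM in siblings. The cytosolic synthetases summed to 4584 and 4585 CPM in the mutant cells of this kind, against 2288 and 1764 CPM in those of siblings. In mutant erythrocyte-like cells the cytosolic sum on the same scale was higher, at 6704 and 7706 CPM. The part of skin transcripts in the result was not tested.

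In HSPC-like cells the same comparison passed the edgeR threshold for none of 25 members tested, while 0.286% of all 9783 genes rose and 0.092% fell. At an unadjusted p under 0.05, 14 members were higher in mutants, against 8.41% of all genes, and DESeq2 called 8 higher, against 1.39% of all genes. The 17 cytosolic genes tested all had a log2 fold change above 0, and the median over the 25 members was 0.46, against -0.0049 over all genes. Both mutant plates lay above both sibling plates for 18 of 25 members, against 23.9% of all genes. Marker sums separated the groups here too. HSPC markers summed to 7384 and 5824 CPM in mutants, against 7566 and 7665 CPM in siblings, and myeloid markers to 267 and 255 CPM in mutants, against 335 and 442 CPM in siblings. EHT markers summed to 335 and 364 CPM in mutants, against 247 and 285 CPM in siblings, and monocyte markers to 232 and 242 CPM in mutants, against 178 and 194 CPM in siblings. The part of these differences in the result was not tested.

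The 5 most abundant members in HSPC-like cells, by the mean over all 20 plates, were nars, aars, gars, dars and hars. Within groups the order below nars varied, and gars averaged above aars in each AGM group, with 347 ± 44.95 CPM for gars and 262 ± 40.2 CPM for aars in AGM controls (SD, n = 4). Between mutants and siblings nars had 865 and 1278 CPM in mutants, against 434 and 411 CPM in siblings (log2 fold change 1.34, SE 0.219, edgeR adjusted p = 0.0706). For aars the levels were 614 and 810 CPM in mutants, against 350.1 and 356 CPM in siblings (1.01, SE 0.185, edgeR adjusted p = 0.0884). In each, mutant plate 2 was the highest and the siblings lay close together. The glycyl enzyme gars had 384.5 and 430 CPM in mutants, against 261 and 278 CPM in siblings (0.60, edgeR adjusted p = 0.170), and hars 311 and 347 CPM in mutants, against 197 and 217 CPM in siblings (0.67, edgeR adjusted p = 0.140). Of these 5 the aspartyl enzyme dars differed least, with 346 and 381 CPM in mutants, against 298 and 303 CPM in siblings (0.28, edgeR adjusted p = 0.442). The 8 mitochondrial genes tested had log2 fold changes between -0.50 and 0.33. The class joins 2 clusters, of which the one led by rhag, prdx2, slc4a1a and myb held 63 and 54 cells of mutants, against 100 and 98 cells of siblings, and the other 41 and 27 cells of mutants, against 96 and 78 cells of siblings. Of these leading genes, rhag is an erythrocyte marker of the study and myb an HSPC marker. The name HSPC-like thus covers cells with erythroid transcripts here. In an alternative chosen after seeing the data, edgeR called 6 of 23 members higher in mutants in the first of these clusters, against 2.61% of all genes, and none of 22 in the other, against 0% of all genes. In that second cluster 14 members were higher at an unadjusted p under 0.05. The share of all genes at that p is not given, so nothing is read from this count.

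In myeloid-like cells the median log2 fold change was 1.42 over the members tested and 1.43 over the 17 cytosolic ones, where the same 17 had a median of 1.46 in erythrocyte-like cells. Here 18 members passed the filter, and nars alone was called by edgeR, with 0.271% of all 8129 genes rising and 0.0984% falling. It had 1346 and 1362 CPM in mutants, against 345 and 443 CPM in siblings (log2 fold change 1.78, SE 0.251, edgeR adjusted p = 0.0445). Without sibling plate 1 this adjusted p was 0.0699. At an unadjusted p under 0.05, 15 members were higher, against 6.68% of all genes, and DESeq2 called 10, against 0.91% of all genes. All 18 had a log2 fold change above 0, where the median over all genes was 0.0020, and for 17 of the 18 both mutant plates lay above both sibling plates, against 22.7% of all genes. The largest value, 2.02 for cars, had an adjusted p of 0.0628. The genes rars and larsb, at 0.25 and 0.02 in erythrocyte-like cells, had log2 fold changes of 0.74 and 0.76 here, without passing the test. Myeloid markers summed to 2570 and 2964 CPM in mutants, against 5040 and 5261 CPM in siblings, in this class, and EHT markers to 2040 and 2486 CPM in mutants, against 1347 and 1426 CPM in siblings. Neither sum overlapped between the groups, and their part in the result was not tested.

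Whether the difference itself varied between classes was tested with the plate as a block. In no pair of classes did a member pass at an adjusted p under 0.05 (0.0553% of all genes did between erythrocyte-like and HSPC-like cells, 1.49% between erythrocyte-like and myeloid-like cells, 0.0681% between HSPC-like and myeloid-like cells). Between erythrocyte-like and HSPC-like cells 13 of 23 members had an unadjusted p under 0.05, 11 of them with the larger change in erythrocyte-like cells, against 11.4% of all genes in either direction. The smallest adjusted p was for yars, whose log2 fold change was 1.82 higher in erythrocyte-like cells (SE 0.318, edgeR adjusted p = 0.0690). Between HSPC-like and myeloid-like cells 9 of 23 members had such a p, all with the larger change in myeloid-like cells, against 8.98% of all genes, and between erythrocyte-like and myeloid-like cells 4 of 21 did, against 11.2%.

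Mutant plate 1 and sibling plate 2 were sorted on the same days, 8 and 9, whereas the other sibling plate was sorted on day 8 and the other mutant plate on day 9. Between the plates of the same days the cytosolic sum was 2.59 times higher in the mutant in erythrocyte-like cells, 1.55 times in HSPC-like cells and 2.35 times in myeloid-like cells. On these plates 18 of 19, 22 of 25 and 17 of 18 members tested were higher in the mutant. With a single plate of each group no test was possible, and the share of all genes higher on this pair is not given.

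Genes of the amino acid response, which includes ATF4, its relatives and the enzymes and carriers that ATF4 is known to regulate in mammals, moved in the same comparison. Of 38 listed genes found in the files, 29 were tested in erythrocyte-like cells. There 20 rose in mutants and 2 fell, against 9.24% and 5.77% of all genes, with a median log2 fold change of 2.08, the same with atf5b at its bound. In HSPC-like cells 7 of 30 rose (0.286% of all genes) and in myeloid-like cells 5 of 31 rose (0.271%), with none falling in these classes. The transcription factor gene atf5b had 65.6 and 89.3 CPM in mutant erythrocyte-like cells and no UMI in siblings, at least 28.6-fold higher against a floor of 3 counts over the sibling plates. Serine is made from an intermediate of glycolysis through phgdh, which had 169 and 157 CPM in mutants, against 1.35 and 0 CPM in siblings (edgeR adjusted p = 2.34e-06). Siblings had 1 UMI of it, so the ratio of 168 has a counting interval (exact, 95%) of 29.9 to 6651. The cystathionine synthase gene cbsb had 108 and 106 CPM in mutants, against 1.35 and 6.63 CPM in siblings (edgeR adjusted p = 1.83e-05), a ratio of 37.0 with an interval of 12.5 to 181 from 3 UMIs in siblings. These intervals cover counting error only.

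The serine enzyme gene phgdh also rose in HSPC-like cells, with 59.9 and 113 CPM in mutants, against 3.34 and 3.23 CPM in siblings (4.70, edgeR adjusted p = 0.0104). Of the skin list, anxa1a rose there by 4.34 on the log2 scale, and cldne rose with 29.1 and 17.7 CPM in mutants, against 0 and 0.358 CPM in siblings, a ratio of 145 with an interval of 25.2 to 5834. In myeloid-like cells atf5a had 61.1 and 76.7 CPM in mutants, against 5.87 and 4.53 CPM in siblings (3.70, edgeR adjusted p = 0.0342). The carrier gene slc1a4, which imports alanine, serine and other neutral amino acids, had 183 and 122 CPM in mutants, against 11.7 and 12.5 CPM in siblings (3.64), and anxa1a rose by 2.70 on the log2 scale. Several genes were picked after their values were seen, for their known place in the response. In erythrocyte-like cells asns, asparagine synthetase, rose by 2.27, trib3, a pseudokinase that dampens ATF4, by 3.53, chac1, a glutathione-degrading enzyme, by 2.93, and atf4a itself by 0.86. By contrast, eif4ebp3 and eif4ebp3l, which encode inhibitors of cap-dependent translation, fell by 1.71 and 1.30. For the summed level of the list the groups separated in erythrocyte-like cells (5796 and 5669 CPM in mutants, against 2020.1 and 2865 CPM in siblings) and in HSPC-like cells (3493 and 3612 CPM in mutants, against 2016 and 2184 CPM in siblings). They overlapped in myeloid-like cells (6185 and 6757 CPM in mutants, against 6276 and 6864 CPM in siblings), where the median log2 fold change of the list was 0.23. The list shares cebpb with the myeloid markers, whose sum was lower in mutants in that class. The part of this gene in the list's sum was not tested.

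**Figure D3:**
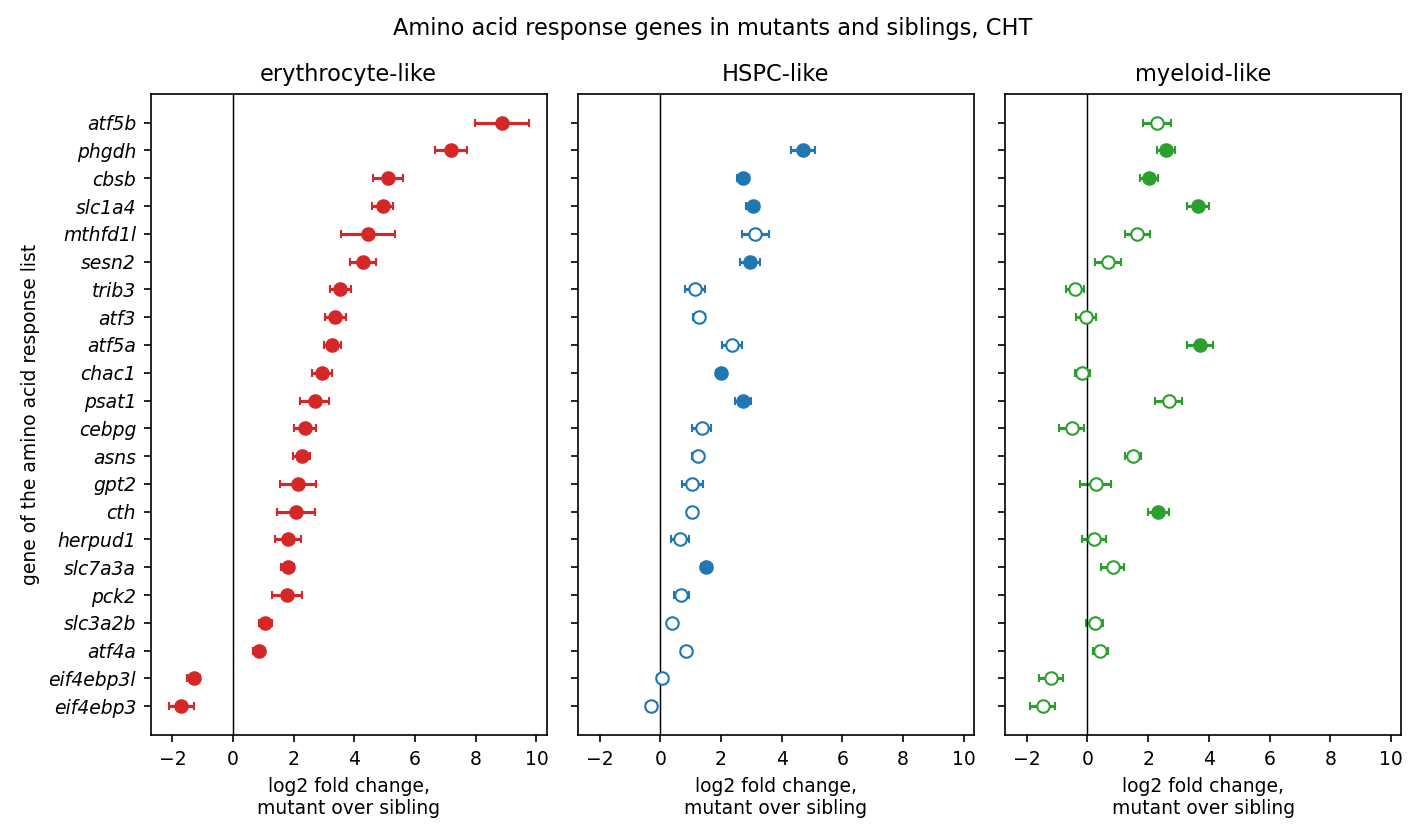
Log2 fold change, mutant over sibling, with its SE (edgeR) for the 22 genes of the amino acid response list called in erythrocyte-like cells, shown in 3 cell classes; filled points have an adjusted p under 0.05. In erythrocyte-like cells 20 genes lie at or above 0.86 and 2 below 0, atf5b at a fitted value set by its lack of UMIs in siblings. The genes shown were chosen by their calls in erythrocyte-like cells.

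Other genes of translation moved in both directions in erythrocyte-like cells, where 9.24% of all genes tested rose and 5.77% fell. Of 8 elongation factor genes tested in erythrocyte-like cells, 4 fell (eef1b2, eef1g, eif5a and eif5a2, by 0.53, 0.52, 0.45 and 0.68 on the log2 scale) and eef2l2 rose by 1.26, while none was called in the other classes. The exchange factor subunit eef1b2 had 1616 and 1650 CPM in mutants, against 2380.4 and 2325 CPM in siblings. Of 3 scaffold genes of the multisynthetase complex tested there, aimp2 rose (0.93, edgeR adjusted p = 0.0330). Of 2 tested partners of tRNA charging, dtd1, which removes D-amino acids from tRNA, rose by 1.40. Of 5 genes for eIF2alpha kinases and its phosphatase, eif2ak1, the heme-regulated kinase, rose by 0.96, and ppp1r15a, whose product dephosphorylates eIF2alpha, by 1.32. In HSPC-like cells none of 8, 4, 6 and 7 genes tested from these lists, in the same order, was called, and in myeloid-like cells none of 8, 3, 3 and 7. Few genes of any kind were called there, with 0.286% rising and 0.092% falling in HSPC-like cells. The shares were 0.271% and 0.0984% in myeloid-like cells.

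LY294002 in the AGM at 36 hpf went with lower synthetase levels that did not pass the edgeR threshold in any class. In HSPC-like cells none of 22 members was called, with 0.0314% of all genes called in either direction. At an unadjusted p under 0.05, 11 of the 22 were lower with LY294002, against 6.35% of all genes, and DESeq2 called 3 lower, against 0.44%. In monocyte-like cells none of 18 members was called (0.111% of all genes), and 8 were lower at an unadjusted p under 0.05 (4.32%). In neutrophil-like cells none of 18 was called (0.0292%), and 7 were lower at an unadjusted p under 0.05 (3.65%). No member was higher at that p in any of these classes, and DESeq2 called none in the last pair. The log2 fold change was below 0 for 21 of 22, 17 of 18 and 18 of 18 members in the classes in this order. Its median was -0.39 in HSPC-like, -0.41 in monocyte-like and -0.42 in neutrophil-like cells, against -0.011, 0.0066 and -0.011 over all genes.

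In HSPC-like cells the cytosolic sum was 3097, 3423, 2558, 2489.6 and 2989 CPM on the 5 LY294002 plates, against 3327, 4103, 3976 and 4034 CPM on the 4 control plates. The plates overlapped only through LY294002 plate 2 and control plate 1. In monocyte-like cells, where LY294002 plate 5 had fewer than 20 cells and was left out, the sum was 1992, 2061, 2187 and 2087 CPM with LY294002, against 2367, 2845, 3018 and 2947 CPM in controls, without overlap. The neutrophil-like cells had 1713, 1826, 1536, 1596 and 2046 CPM with LY294002, against 1829, 2246, 2359 and 2284 CPM in controls. The smallest adjusted p was that of hars, which had 183, 196, 127, 134 and 148 CPM in LY294002-treated HSPC-like cells, against 241, 351, 231 and 240.2 CPM in controls (log2 fold change -0.73, SE 0.143, edgeR adjusted p = 0.0904). All LY294002 plates lay below all controls for hars. Such a gap was seen for 4 of 22 members in HSPC-like cells (2.3% of all genes), 7 of 18 in monocyte-like cells (2.65%) and 3 of 18 in neutrophil-like cells (1.49%).

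The other abundant members showed smaller differences in HSPC-like cells. With LY294002, nars had 539, 500.3, 452, 442 and 606 CPM, against 475, 450.2, 700.0 and 756 CPM in controls (log2 fold change -0.22, edgeR adjusted p = 0.609). The control plates fell apart by sorting period, the later ones being higher. For dars the levels were 175, 184, 199, 211 and 190.1 CPM with LY294002, against 242, 215, 288 and 284 CPM in controls (-0.44, edgeR adjusted p = 0.213), without overlap. The alanyl and glycyl enzymes aars and gars overlapped between the groups (-0.35 and -0.42, edgeR adjusted p = 0.375 and 0.316).

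Both sorting periods held treated and control plates, and the period was a term of the fit. Within a period the groups were sorted on different days, LY294002 on day 4 and controls on day 1 in the first, and LY294002 on days 11 to 12 and controls on days 10 to 11 in the second, so that treatment and sorting day cannot be fully told apart. Among plates of days 1 to 4 the mean cytosolic sum with LY294002 was 0.878 times that of controls in HSPC-like cells, 0.778 times in monocyte-like cells and 0.869 times in neutrophil-like cells. For days 10 to 12 the ratios were 0.669, 0.717 and 0.743. Depth differed too. Over all cells of a plate, the median cell of days 10 to 12 held 9022, 5575 and 13189 UMIs with LY294002, against 13444 and 13170 UMIs in controls. For days 1 to 4 it held 10147 and 12533 UMIs with LY294002, against 9289 and 10747 UMIs in controls. The part of depth in the result was not tested. Muscle transcripts stood at 7030.4 CPM in HSPC-like cells of LY294002 plate 4, against at most 384 CPM on the other plates of this comparison, and their part in the result was not tested. Skin-list sums overlapped between the groups in each of the 3 classes.

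**Figure D4:**
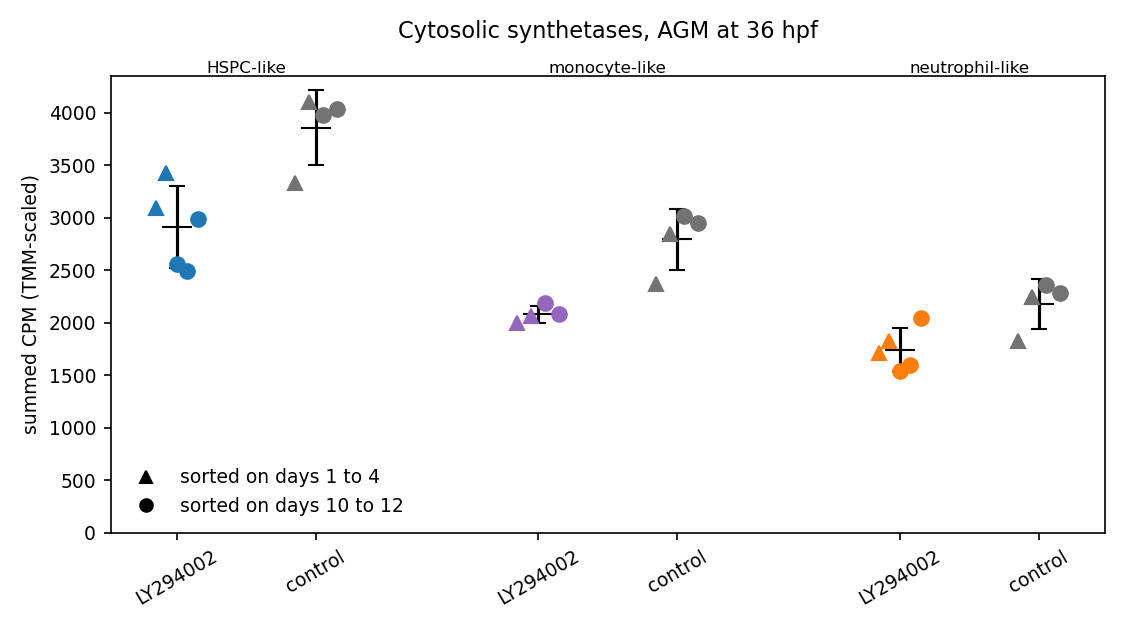
Summed level (CPM, scaled by TMM) of the 19 cytosolic synthetase genes in the AGM at 36 hpf, with LY294002 left of control in each class; each point is a plate, triangles are days 1 to 4 and circles days 10 to 12, the dash is the mean and the bar is the SD (n = 5, 4 and 5 with LY294002, 4 in each control). In monocyte-like cells the LY294002 plates reach 2187 CPM and the controls start at 2367 CPM, and the groups overlap in the other classes.

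In the CHT at 5 dpf, where all 4 plates were sorted on day 13, no member passed the test between LY294002 and control. In erythrocyte-like cells none of 19 members was called (0.484% of all genes) and 2 were lower at an unadjusted p under 0.05 (17.3% of all genes in either direction). In HSPC-like cells none of 20 was called (0%) and 1 was lower at that p (9.93%). In myeloid-like cells none of 18 was called (0.223%) and none had such a p (6.97%). In neutrophil-like cells none of 13 was called (0%) and 1 was higher at that p (6.37%). DESeq2 called no member in these 4 classes, and the median log2 fold changes of the members were -0.10, -0.12, 0.04 and 0.19 in this order. The cytosolic sum in erythrocyte-like cells was 2381 and 2375 CPM with LY294002, against 2399.8 and 2406 CPM in controls. In HSPC-like cells it was 2742 and 2782 CPM with LY294002, against 2985 and 2949 CPM in controls. With plain totals in place of TMM the gaps were wider. The erythrocyte-like sum was then 2196 and 2110 CPM with LY294002, against 2560 and 2467 CPM in controls. The HSPC-like sum was 2477 and 2664 CPM with LY294002, against 2919 and 3041 CPM in controls. In myeloid-like and neutrophil-like cells the plain sums overlapped. In erythrocyte-like cells the LY294002 plates lay below the controls without overlap for 5 of 19 members (24.4% of all genes) and above them for 4 (23.9%). In HSPC-like cells they lay below for 7 of 20 (21.5%) and above for 3 (21.9%), in myeloid-like cells below for 2 of 18 (18.2%) and above for 1 (17.2%), and in neutrophil-like cells below for 2 of 13 (18.2%) and above for 2 (17.9%). The lowest log2 fold change in erythrocyte-like and HSPC-like cells was that of yars, the member with the largest rise in mutant erythrocyte-like cells. It had 25.6 and 24.8 CPM with LY294002, against 46.6 and 50.8 CPM in controls, in erythrocyte-like cells (-0.95, SE 0.271, edgeR adjusted p = 0.150). In HSPC-like cells it had 54.5 and 50.4 CPM with LY294002, against 82.6 and 99.98 CPM in controls (-0.80, SE 0.228, edgeR adjusted p = 0.477). With 2 plates a group the precision was limited, as for nars in HSPC-like cells, with a log2 fold change of -0.20 and an SE of 0.166. Muscle transcripts in these HSPC-like cells summed to 15273 and 59.8 CPM with LY294002, against 67242 and 15609.8 CPM in controls. They also stood lower with LY294002, without overlap, in erythrocyte-like cells (855 and 83.6 CPM with LY294002, against 5259 and 1095 CPM in controls) and in neutrophil-like cells (983 and 149 CPM with LY294002, against 5234 and 1202 CPM in controls), and overlapped in myeloid-like cells. The median log2 fold change of the muscle genes tested lay between -2.81 and -2.06 in the 4 classes, with 1 gene called, and their part in the result was not tested.

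Set side by side in HSPC-like cells, the mutant and AGM inhibitor comparisons, which share no plate, went opposite ways for most members. Of 22 members tested in both, 19 (86.4%) had a log2 fold change above 0 in mutants and below 0 with LY294002, against 27.2% of 8372 genes tested in both. Across these 22 genes, which are not independent replicates, the fold changes had a Pearson r of -0.352 and a Spearman rho of -0.387, against -0.0657 and -0.0559 over all genes. The joint count follows largely from the separate counts, with 22 of 25 members above 0 in mutants and 21 of 22 below 0 with LY294002. It is therefore not separate evidence of opposite changes gene by gene. The comparisons differ in stage, tissue and sorting day as well as in treatment. The values for nars were 1.34 in mutants and -0.22 with LY294002 in the AGM, and for hars 0.67 and -0.73. The joint count was not made for LY294002 in the CHT, which shares tissue and stage with the mutants. There the shift was smaller, with 14 of 20 members tested in HSPC-like cells below 0 and 6 above (median log2 fold change -0.12). In myeloid-like cells of the CHT, 8 of 18 members lay below 0 with LY294002 and 10 above (median 0.04). In erythrocyte-like cells of the CHT, 13 of 19 members lay below 0 with LY294002 and 6 above (median -0.10). The joint count thus covers the AGM comparison in HSPC-like cells only, and opposite directions in other classes were not counted gene by gene.

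Between the untreated stages, HSPC-like cells of CHT controls and AGM controls differed in few members. Of 27 tested, 2 were higher in the CHT and none lower, while 16.1% of all 10199 genes were higher and 16.3% lower. The median was 0.15 over the members and -0.034 over all genes. The aspartyl enzyme dars had 389 and 387 CPM in the CHT, against 217, 193, 253 and 249 CPM in the AGM (log2 fold change 0.77, SE 0.158, edgeR adjusted p = 0.00729). The mitochondrial valyl enzyme vars2 had 27.1 and 13.4 CPM in the CHT, against 2.89, 5.56, 5.43 and 6.45 CPM in the AGM (1.94, SE 0.455, edgeR adjusted p = 0.0129), from at most 25 UMIs a plate. Without CHT control plate 1 the adjusted p was 0.0583 for dars and 0.210 for vars2, and without CHT control plate 2 it was 0.0607 for dars. The cytosolic sum was 3717 and 3723 CPM in the CHT, against 2976, 3679, 3486 and 3525 CPM in the AGM, above all 4 AGM plates by little. With plain totals in place of TMM the CHT plates lay below all AGM plates instead. They then had 2919 and 3041 CPM, against 3121, 4024.5, 3909 and 3900 CPM in the AGM. On the TMM scale common to all plates the groups overlapped, so the direction of this sum depends on the scaling. Stage, tissue and sorting day cannot be told apart here. All 20 muscle genes tested were called higher in the CHT, with sums of 83734 and 19711 CPM in these CHT cells, against 30.8 to 129.5 CPM in the AGM, and erythrocyte markers summed to 12870.3 and 11876 CPM in the CHT, against 149 to 909 CPM in the AGM, and their part in the result was not tested.

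Levels by class were compared on a scale common to all plates and classes, on which values differ from those above, and without tests, since the classes were made from the same cells. In AGM controls the cytosolic sum averaged 3181 ± 388 CPM in HSPC-like, 2855 ± 446 CPM in monocyte-like and 2545 ± 367 CPM in neutrophil-like cells (SD, n = 4 each), neighbours that lie within their spread on this scale. With plain totals in place of TMM the plates of these classes separated, at 3121 to 4024.5 CPM in HSPC-like, 2396 to 3067 CPM in monocyte-like and 1806 to 2395 CPM in neutrophil-like cells. The EHT-like cells were lowest, with 1162 ± 133 CPM (SD, n = 2). In CHT controls the order was HSPC-like at 3146 ± 51.7 CPM, erythrocyte-like at 2835 ± 0.704 CPM, myeloid-like at 2027 ± 229 CPM and neutrophil-like cells at 1684 ± 186 CPM (SD, n = 2 each). The plates of neighbouring classes did not overlap in this order, and the last pair came nearest, with 1865 CPM on the lower myeloid-like plate and 1816 CPM on the higher neutrophil-like plate.

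**Figure D5:**
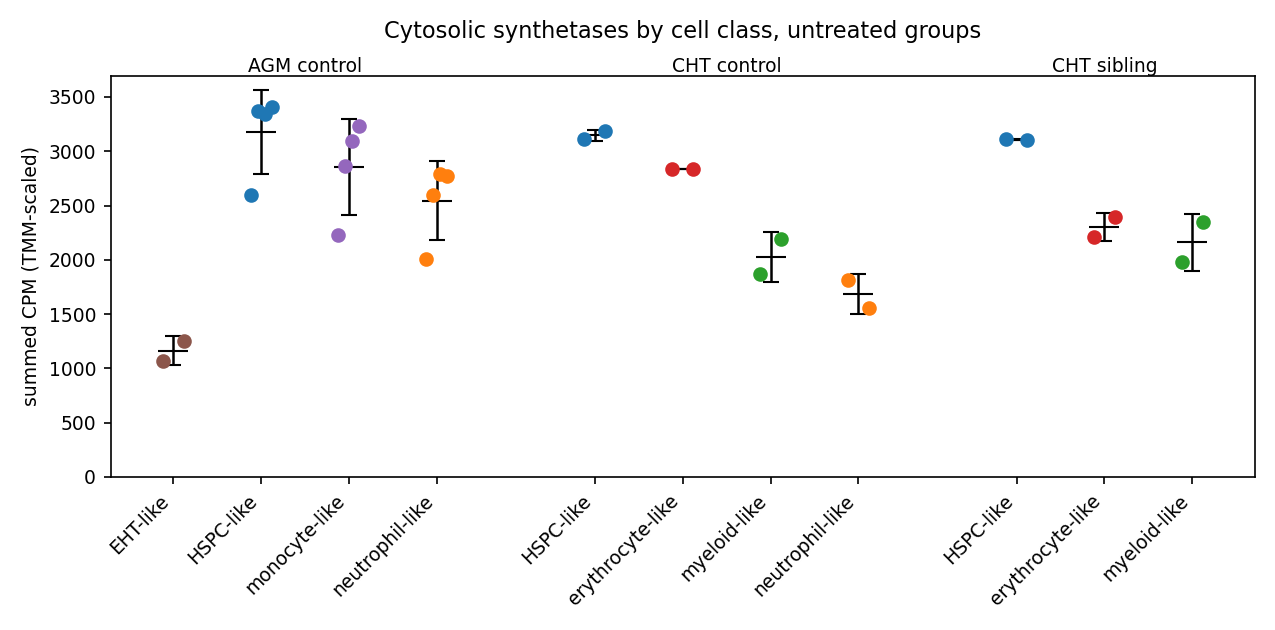
Summed level (CPM, scaled by TMM over all plates and classes) of the 19 cytosolic synthetase genes by cell class in AGM controls, CHT controls and CHT siblings of the mutants; each point is a plate, the dash is the mean and the bar is the SD (n = 4, or 2 for EHT-like cells, in the AGM and n = 2 in the CHT). The EHT-like cells average 1162 CPM and the HSPC-like cells 3181, 3146 and 3106 CPM in the 3 groups.

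In mutant plates erythrocyte-like cells were highest, with 7609 ± 1176 CPM, followed by myeloid-like cells with 5586 ± 37.3 CPM and HSPC-like cells with 5229 ± 762 CPM (SD, n = 2 each), the plates of the last pair overlapping. In sibling plates the order differed, with 2301 ± 126 CPM in erythrocyte-like, 2163 ± 263 CPM in myeloid-like and 3106 ± 5.29 CPM in HSPC-like cells. Among single genes nars led in all classes and groups except EHT-like cells of AGM controls and of LY294002-treated embryos, where gars was ahead (in controls 167 ± 53.8 CPM for gars and 133 ± 33.7 CPM for nars, within their spread). Over the HSPC-like cells of all 20 plates nars averaged 480 ± 221 CPM, aars 303 ± 149, gars 297 ± 63.8, dars 239 ± 75.1 and hars 199 ± 62.1 CPM (SD, n = 20). The cytosolic genes tarsl2 and larsa averaged 4.36 and 1.37 CPM, far under the next lowest, cars, with 57.7 CPM. The highest mitochondrial gene was iars2, with 34.7 ± 8.45 CPM, and the 10 others averaged between 1.75 and 17.5 CPM.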

How the data were processed

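The 20 deposited tables of expected counts hold UMIs per gene and well, which the authors corrected for barcode collisions after mapping to a Zv9 transcriptome with BWA (submitters' processing notes). They are whole at low counts and were not normalized. Here wells with at least 1500 UMIs, spike-ins left out, were kept as cells. One cell was sorted per well and no doublet caller was run. The AGM plates, the CHT plates of LY294002 and its control, and the CHT plates of mutants and siblings were clustered separately (k-medoids, 5 clusters, 1 minus Pearson r). The distance used neither the synthetase genes nor tmed1b and mitochondrially encoded genes. Clusters were named from the study's markers by a rule set after the clusters were seen. The members and lists were chosen with earlier results of these data known.

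UMIs were summed per plate and class (at least 20 cells), rounded and tested with edgeR 4.0.16 (filterByExpr, TMM, quasi-likelihood F test) in R 4.3.3, and DESeq2 1.42.0 was an alternative. P-values were adjusted by Benjamini-Hochberg over all genes tested, with a threshold of 0.05, and the SE is the log2 fold change divided by the root of F. Totals per plate and class tested ran from 122758 to 4763092 UMIs. Levels are CPM with the TMM factors of the comparison. The AGM fit had the sorting period (days 1 to 4 or 10 to 12) as a term, and differences between classes were tested with the plate as a block. The edgeR test was run on simulated counts for mutant and sibling HSPC-like cells only, with the same dispersion for every gene and no plate effect. This did not cover the AGM fit or the test between classes. The text names up to 10 called members with the largest change in the class with most calls (5 in others), the 5 most abundant in HSPC-like cells, and the 3 list genes with the largest change per class. The levels of the mutated genes are not reported here. Alternatives were no filter, 7 clusters, at least 3000 UMIs, each plate left out, no classes, no period term, and later AGM controls only. The plate layouts were not used here, so wells that the labels say were left out by the authors could not be removed. No gene sequence or coordinate was used.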

Additional observations from a re-analysis of the deposited data

Results flagged for a closer look

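In groups of 4 or 5 plates, 42 sets of values were screened for a plate far from the others, and chance flags about 5% of such sets. Control plate 1 of the AGM was low for aars in HSPC-like cells (259 CPM, the other 3 controls at 331 to 345 CPM), for aars in neutrophil-like cells (148 CPM, the others at 213 to 222 CPM) and for the cytosolic sum in HSPC-like cells (3327 CPM, the others at 3976 to 4103 CPM). Control plate 2 was high for hars in HSPC-like cells, with 351 CPM against 231 to 241 CPM. LY294002 plate 2 of the AGM was high for gars in HSPC-like cells (430 CPM, the other 4 at 273 to 309 CPM). LY294002 plate 5, with 21 HSPC-like cells, was high for the mitochondrial sum in HSPC-like cells (180.4 CPM, the others at 111 to 123 CPM) and for nars in neutrophil-like cells (651 CPM, the others at 419 to 456 CPM).

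Among the AGM plates that mix both treatments and enter no comparison, plate 1 had a mitochondrial sum of 111 CPM in its 29 monocyte-like cells, on the scale common to all plates, from 48 UMIs, above the highest control plate at 79.5 CPM.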

How the results depend on the processing

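In erythrocyte-like cells of mutants and siblings the 14 members called were 11 to 13 when each plate was left out in turn (6.28% to 7.63% of all genes rising), 12 with DESeq2 (4.58%) and 11 in the narrower range of erythrocyte markers (3.14%), and 13 were called over all cells of a plate with no classes (9.18%). In HSPC-like cells the 0 members called became 7 with no filter (1.84% of all genes rising), 8 with DESeq2 (1.39%) and 6 in the erythroid-led cluster alone (2.61%), and 0 to 4 when a plate was left out, the 4 without mutant plate 1 (0.692%). In myeloid-like cells the 1 member called became 11 with no filter (2.09% of all genes rising), 10 with DESeq2 (0.91%), 7 with 7 clusters (0.788%), 4 with at least 3000 UMIs (0.35%), and 0 to 11 when a plate was left out (0 without sibling plate 1, 8 without sibling plate 2, 10 without mutant plate 1 and 11 without mutant plate 2, against 0.42%, 1.79%, 5.35% and 2.29% of all genes rising, in this order). With LY294002 in AGM HSPC-like cells the 0 became 1 lower with no filter (0.27% of all genes lower), 3 lower with DESeq2 (0.44%), and 0 to 2 when a plate was left out (2 lower without control plate 1, 0.186%). Of the stage comparison's 2 members, 0 to 2 were called when a plate was left out (0 without CHT control plate 1, 1 higher without plate 2, where 6.83% and 7.33% of all genes were higher), and 4 with later AGM controls only (3 higher and 1 lower, against 19.9% and 23.3% of all genes). None of these counts of called members reversed, and the cause of these moves was not tested. A further 94 such counts stayed within 1.5 times.

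Of the values for the named members, 159 stayed on their side of the threshold, 4 lost their call (vars2 and dars without a CHT control plate, nars in myeloid-like cells without sibling plate 1) and 7 gained one (nars, aars and hars in HSPC-like cells). Over all genes, edgeR, DESeq2 and no filter called 28, 136 and 383 higher and 9, 37 and 277 lower in mutant HSPC-like cells, and 22, 74 and 435 higher and 8, 32 and 189 lower in mutant myeloid-like cells. In erythrocyte-like cells DESeq2 called 264 higher and 131 lower, against 533 and 333 with edgeR. With LY294002 in the AGM, edgeR, DESeq2 and no filter called 3, 60 and 171 higher and 0, 42 and 63 lower in HSPC-like cells, 5, 50 and 177 higher and 2, 12 and 47 lower in monocyte-like cells, and 2, 30 and 89 higher and 0, 2 and 18 lower in neutrophil-like cells. In the CHT they called 22, 27 and 66 higher and 8, 9 and 152 lower in erythrocyte-like cells, 0, 10 and 19 higher and 0, 2 and 156 lower in HSPC-like cells, 1, 2 and 82 higher and 9, 21 and 73 lower in myeloid-like cells, and 0, 0 and 24 higher and 0, 0 and 24 lower in neutrophil-like cells. With plain totals in place of TMM the levels by class moved by more than their SD in 15 of 26 cases, and the cytosolic sum in AGM control HSPC-like cells became 3739 CPM. In CHT control HSPC-like cells it became 2980 CPM. The order of these groups was thus the reverse of that on the TMM scale of the stage comparison. No paired analysis was possible because the labels number no replicates within groups, and sorting days as a block would leave no residual degrees of freedom in the mutant comparison, where a single pair of plates shares its days. Depth limited which low genes could be tested between mutants and siblings: 2, 8 and 1 of the 11 mitochondrial genes passed the filter in erythrocyte-like, HSPC-like and myeloid-like cells, and the cytosolic tarsl2 and larsa in none of these classes.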

Other observations

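Genes of the amino acid response differed between the untreated stages, where the synthetases largely did not pass the test. In HSPC-like cells of CHT controls, 13 of 34 genes of that list tested were lower than in AGM controls and 4 were higher, against 16.3% and 16.1% of all genes. Among them, named after their values were seen, atf4a, the zebrafish counterpart of ATF4, had a log2 fold change of -1.22 (SE 0.227, edgeR adjusted p = 0.00467), trib3 of -2.53 and slc1a4 of -1.72, while ddit3, a stress-induced transcription factor gene, had 3.05. Of the translation elongation factor list 6 of 9 genes were higher and 1 was lower. Stage, tissue and sorting day cannot be told apart in these values. With LY294002 no gene of the response list was called, of 33 tested in HSPC-like, 29 in monocyte-like and 26 in neutrophil-like cells of the AGM. Hardly any gene was called there, at 0.0314%, 0.111% and 0.0292% of all genes in this order, so these counts say little about the list.

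The 3 AGM plates that hold both treatments had cytosolic sums, on the scale common to all plates, of 2675, 2145 and 3031 CPM in HSPC-like cells and of 2193.5, 2158 and 2923 CPM in monocyte-like cells. In neutrophil-like cells plates 2 and 3 had 1909.5 and 2505 CPM.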
